A study of Arabidopsis thaliana with 12 samples.

Results

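The glucosinolate genes described here are 45 Arabidopsis thaliana loci that make, move or break down aliphatic and indolic glucosinolates. They were chosen by gene identifier for their known roles, with earlier results of these data known. The pathway itself was selected on fold changes of its aliphatic genes between the genotypes compared here. The values of aliphatic members are therefore a description, and nothing is supported with them. Of the 45 loci, 44 have a row among the 32833 loci of the count files, and 39 of these had enough counts to be tested among 19236 loci. Aliphatic loci make up 24 of the 44, indolic loci 11, transporters 3 and breakdown genes 4, and the other 2 act in both branches. AOP2 (AT4G03060) was not analysed here.

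Messenger RNA was sequenced from hypocotyls together with the upper 5 mm of the root of plants grown in long days for 3 weeks, with 3 biological replicates for each of 4 genotypes. Wild type was Col-0. The er erl2 line carried er-105 and erl2-1, alleles of the receptor kinase genes ERECTA (ER) and ERL2. The pxf line carried pxy-3, pxl1-1 and pxl2-1, alleles of PXY and its relatives PXL1 and PXL2, which encode receptor kinases of the vascular cambium. The pxf er erl2 line combined all 5 alleles. Each mutant was a stock line, so a difference from wild type is that of the line.

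Glucosinolates are sulfur-rich defence compounds of the cabbage order. Aliphatic ones are built from methionine in 3 stages: the amino acid side chain is elongated in the plastid, the core structure is formed by cytochromes P450, glutathione conjugation, a C-S lyase, a glucosyltransferase and a sulfotransferase, and the side chain is then modified. Indolic ones are built from tryptophan through a parallel core. MYB28, MYB29 and MYB76 activate the aliphatic branch, and MYB34, MYB51 and MYB122 the indolic branch. GTR transporters load glucosinolates into the phloem, and when tissue is damaged the myrosinases TGG1 and TGG2, stored in myrosin cells beside the phloem and in guard cells, cut off the glucose and release toxic products.

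Library totals ranged from 10507590 to 14716123 assigned reads, and levels are given as CPM, the count of a gene relative to the library total after TMM scaling. In pxf er erl2, replicate 3 stood apart. Its counts differed from those of replicates 1 and 2 with a chi-square per degree of freedom of up to 18.0, against 3.21 between those 2 libraries, and 18 of the 21 tested aliphatic members were below their genotype mean in it. PXY had 248 to 251 CPM in wild type, 20.7 to 26.0 for pxf and 72.6 to 83.8 for pxf er erl2. ER had 32.6 to 42.7 CPM in wild type, 8.54 to 11.5 for er erl2 and 7.70 to 11.3 for pxf er erl2. ERL2, PXL1 and PXL2 were too low to check the labels. In the order wild type, er erl2, pxf and pxf er erl2, ERL2 had 16, 14, 14 and 5 counts over the libraries. PXL1 had 7, 10, 37 and 14, highest in pxf, and PXL2 had 31, 19, 19 and 10. Markers of green tissue moved with the mutants. Of 10 such markers, none was at 0 in every library, though RBCS2B had 0 counts in wild type replicate 1, and 9 were higher than wild type for er erl2, 9 for pxf and 10 for pxf er erl2. Their summed level was 1072 to 1583 CPM in wild type, 2683 to 2947 for er erl2, 4006 to 5428 for pxf and 4422 to 7125 for pxf er erl2. Of 3 phloem markers, 1 was higher in er erl2, and in pxf 2 were higher and 1 lower. In pxf er erl2, 2 were higher. Their summed level was 204 to 236 CPM in wild type, 229 to 294 for er erl2, 321 to 372 for pxf and 362 to 489 for pxf er erl2. Of 4 xylem markers, 2 were lower in pxf, and 2 were lower and 1 higher in pxf er erl2. Their sum was 933 to 991 CPM for wild type, 1000 to 1466 for er erl2, 761 to 817 for pxf and 763 to 811 for pxf er erl2. Of 2 tested endodermis markers, PER64 was lower in both lines with the pxf alleles. The sum of the 3 listed was 172 to 335 CPM for wild type, 167 to 484 for er erl2, 5.45 to 11.9 for pxf and 13.8 to 26.6 for pxf er erl2. Nearly all of that sum was PER64, at 259 CPM on average in wild type and 6.28 in pxf. ESB1 did not pass against wild type, with means of 1.41, 1.26, 1.22 and 1.4 CPM in the same order. CASP1 was too low to test, with 2, 18, 8 and 13 counts over the libraries. The 3 root hair markers were too low to test, at 0.499 CPM or less in sum. Over all tested loci, 10.3% were higher and 8.44% lower in er erl2, 13.0% and 7.97% in pxf, and 19.9% and 16.4% in pxf er erl2. The part of any of these tissues in the values below was not tested. In such bulk samples fewer cells of a type and less RNA per cell cannot be told apart.

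Several members lie side by side in the genome as related copies that moved differently, and the 200 bases before the annotated start of 2 such pairs, CYP79F1 with CYP79F2 and TGG1 with TGG2, are shown for that reason (RefSeq, build TAIR10.1, written 5′ to 3′ on the strand of the gene). MAM1 and MAM3 elongate the methionine side chain and are direct neighbours, with 83.8% identical coding bases. CYP79F1 and CYP79F2 start the aliphatic core and are direct neighbours, with 91.4% identical coding bases and transcripts that share up to 100 bases in a row, so that reads could be split between them in counting. TGG1 and TGG2 have 2 protein-coding loci between them and 82.7% identical coding bases, and their longest shared transcript run is 55 bases. Capitals mark runs of at least 10 bases that both members of a pair share. The regions are chr1:5608482-5608681 (+) for CYP79F1, chr1:5604844-5605043 (+) for CYP79F2, chr5:9082385-9082584 (-) for TGG1 and chr5:9072508-9072707 (+) for TGG2.
CYP79F1: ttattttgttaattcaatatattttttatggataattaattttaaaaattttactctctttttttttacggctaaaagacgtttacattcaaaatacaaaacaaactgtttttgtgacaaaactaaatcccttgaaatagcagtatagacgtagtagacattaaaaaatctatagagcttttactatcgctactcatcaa
CYP79F2: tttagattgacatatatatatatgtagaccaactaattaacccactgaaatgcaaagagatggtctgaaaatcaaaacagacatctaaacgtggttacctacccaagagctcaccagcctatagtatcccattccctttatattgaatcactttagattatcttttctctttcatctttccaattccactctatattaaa
TGG1: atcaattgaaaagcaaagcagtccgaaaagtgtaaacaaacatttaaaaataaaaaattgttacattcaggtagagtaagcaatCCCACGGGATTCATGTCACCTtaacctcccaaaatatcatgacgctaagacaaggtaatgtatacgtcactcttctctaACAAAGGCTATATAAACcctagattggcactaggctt
TGG2: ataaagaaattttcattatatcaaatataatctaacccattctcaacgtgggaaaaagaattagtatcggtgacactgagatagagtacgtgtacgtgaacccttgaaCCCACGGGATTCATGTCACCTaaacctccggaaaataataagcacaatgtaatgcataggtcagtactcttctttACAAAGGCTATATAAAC

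The TGG1 and TGG2 regions shared 2 such runs, the longer of 21 bases, whereas no run of 10 bases was shared between CYP79F1 and CYP79F2 (longest 7). Short motifs were searched on both strands of these 200 bases in all 44 members. The G-box CACGTG was found before 3 of the 44 members and in 5.64% of 27437 protein-coding genes with the same length of upstream sequence. The AC element ACCNACC, a known binding motif of R2R3 MYB factors, was found before 9 members and in 5.03% of those genes. A related AC element, ACCTAAC, was found before 2 members and in 2.06% of genes. Of the 4 printed regions the CYP79F2 one holds an AC element of the first kind, starting 104 bases before the gene, and no other match was found in the 4. CYP83A1 and IPMI-LSU1 hold both the first AC element and the G-box.

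Against wild type, more members were higher than lower in each mutant. In er erl2, 17 of 39 tested members were higher and 2 lower at an adjusted p under 0.05, where 10.3% of all tested loci were higher and 8.44% lower. In pxf, 25 were higher and 2 lower, beside 13.0% and 7.97% of all loci. In pxf er erl2, 33 were higher and none lower, beside 19.9% and 16.4% of all loci. The count of lower members there was 0 in edgeR at an unadjusted p under 0.05 as well, and 0 by DESeq2. These 3 comparisons share the wild-type libraries. The median log2 difference over tested members was 0.27 for er erl2, 0.66 for pxf and 1.10 for pxf er erl2, against 0.02, 0.01 and -0.00 over all tested loci.

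The medians of the branches lay apart. The median over the 21 tested aliphatic members was 1.53 for er erl2, 1.15 for pxf and 3.11 for pxf er erl2 on the log2 scale. Over the 10 tested indolic members the medians were -0.26, 0.24 and 0.66. Aliphatic members higher than wild type numbered 16, 19 and 21 in the 3 mutants, beside 10.3%, 13.0% and 19.9% of all tested loci. Higher in all 3 were 15 of the 21, as were 3.86% of all tested loci: BCAT4, BAT5, MAM1, IPMI-LSU1, IPMI-SSU2, IPMI-SSU3, IPMDH1, BCAT3, CYP79F1, CYP79F2, CYP83A1, UGT74C1, SOT18, GS-OX1 and GS-OX3. No indolic, transport or breakdown member and neither of the 2 shared enzymes was higher in all 3. Summed over the 24 aliphatic loci, CPM was 477 to 538 for wild type, 1086 to 1157 for er erl2, 1017 to 1107 for pxf and 1447 to 1875 for pxf er erl2. Summed over the 11 indolic loci it was 1472 to 1933, 1365 to 1684, 2021 to 2535 and 2691 to 3137 in the same order. The aliphatic sum of wild type did not overlap any mutant, while the indolic sums of wild type and er erl2 overlapped.

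**Figure D1:**
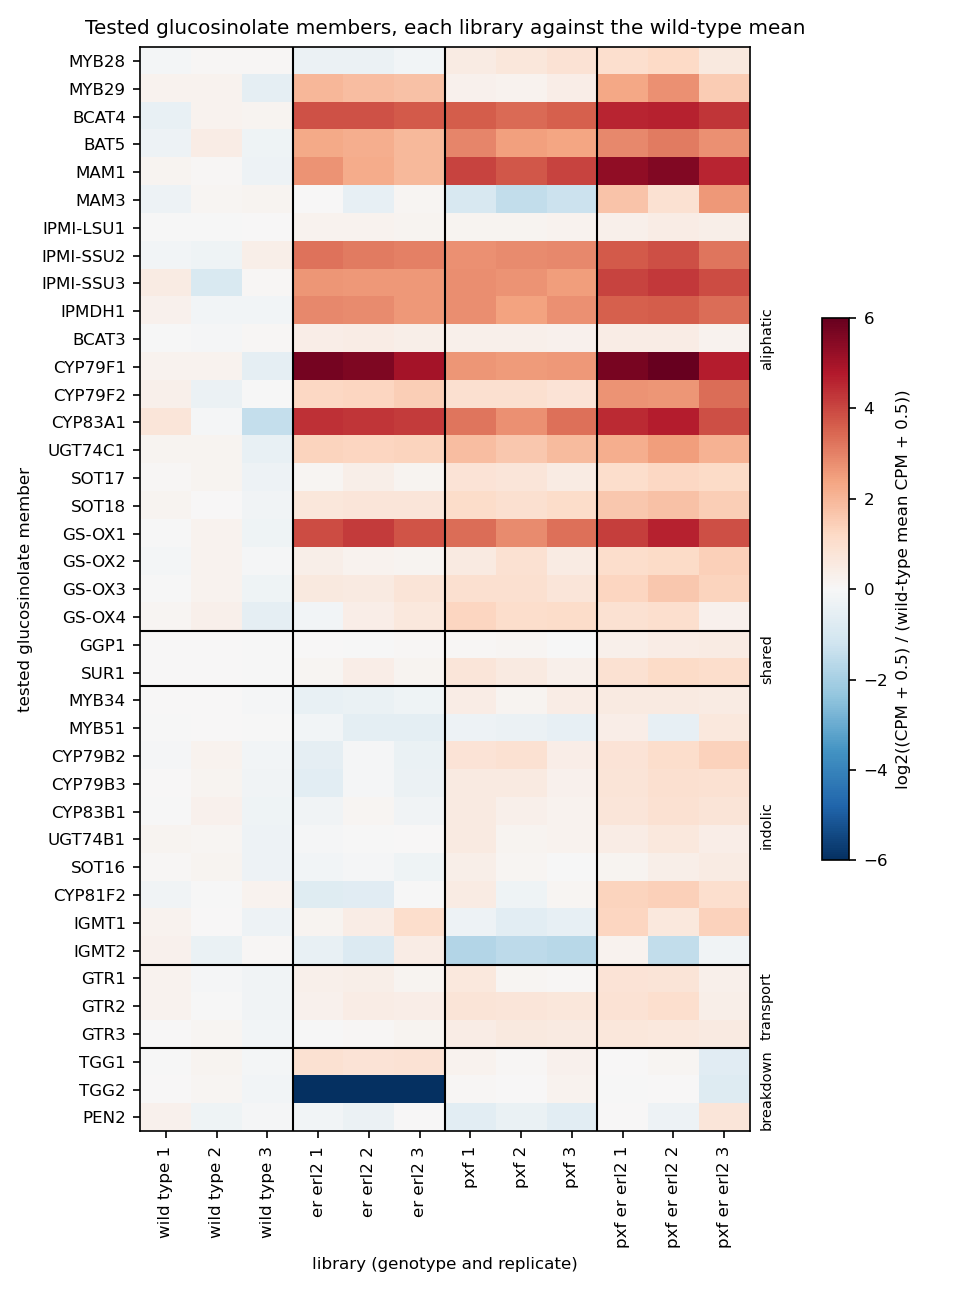
Colours show log2 of each library's CPM over the wild-type mean, with 0.5 CPM added to each, for the 39 tested members (rows, grouped by branch) in the 12 libraries (columns, grouped by genotype). Aliphatic rows such as BCAT4, MAM1, CYP79F1 and CYP83A1 are red in all 9 mutant libraries, and TGG2 is dark blue only in the 3 er erl2 libraries.

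**Figure D2:**
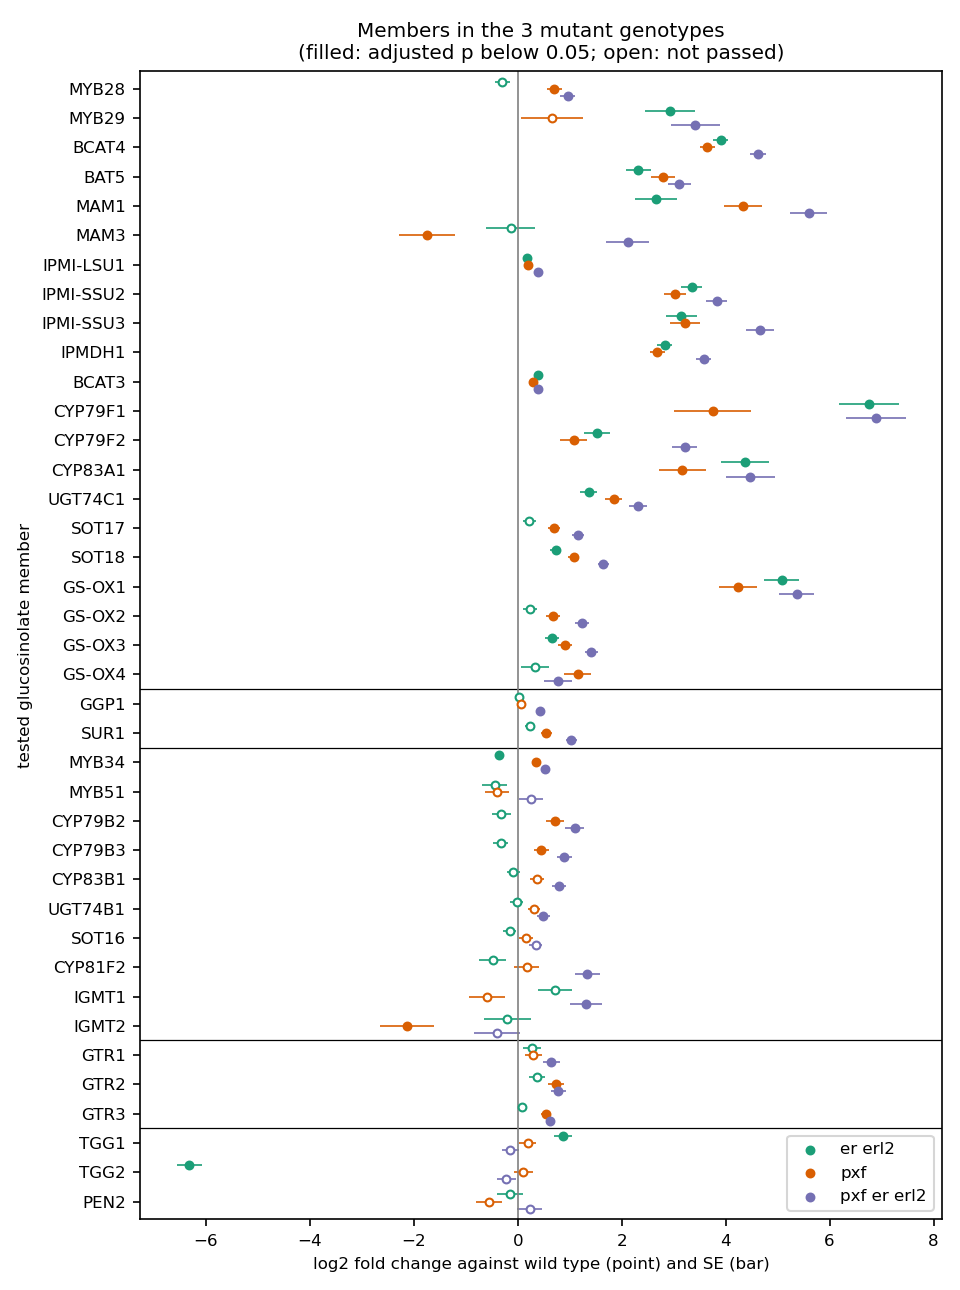
Points show the log2 fold change of each tested member against wild type and bars its SE, for er erl2, pxf and pxf er erl2; filled points passed an adjusted p of 0.05. The largest positive values belong to CYP79F1, MAM1 and GS-OX1, and TGG2 in er erl2 lies at -6.32.

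The aliphatic regulators followed different genotypes. MYB28 (AT5G61420), the main activator of aliphatic genes, had 20.2, 23.3 and 23.3 CPM in wild type, 17.5, 17.1 and 19.8 in er erl2, 31.9, 36.2 and 40.6 in pxf, and 44.8, 51.1 and 33.7 in pxf er erl2. Both lines with the pxf alleles lay above wild type with no overlap, and er erl2 lay just below it. The log2 difference was 0.70 (SE 0.14) in pxf and 0.96 (SE 0.14) in pxf er erl2, both past the threshold, and -0.30 (SE 0.15) in er erl2, which did not pass. MYB29 (AT5G07690), which acts beside MYB28, had 0.474, 0.456 and 0.0849 CPM in wild type, 2.89, 2.52 and 2.37 in er erl2, 0.499, 0.482 and 0.615 in pxf, and 3.74, 5.13 and 1.95 in pxf er erl2. Here the lines with the er and erl2 alleles were the high ones. Its log2 difference was 2.93 (SE 0.49) in er erl2, 0.66 (SE 0.60, not passed) in pxf and 3.41 (SE 0.47) in pxf er erl2. MYB76 (AT5G07700), the third activator and the next gene along from MYB29, was too low to test. It had no count in any wild-type or pxf library, 21 counts over the er erl2 libraries and 22 over the pxf er erl2 libraries. Taking 3 counts over a group as the limit that 0 allows, it was at least 6.51-fold higher in er erl2 than in wild type, and at least 8.04-fold higher in pxf er erl2 than in pxf.

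Some regulators lie near mutated genes. MYB28 is on chromosome 5 at 24689069 to 24691187, 33.2 kb from PXY with 5 protein-coding loci between. MYB29 and MYB76 lie on chromosome 5 as well, 213.1 and 216.4 kb from ERL2, with 55 and 56 protein-coding loci between. MYB34 is 228.0 kb from PXY. Among 15 tested loci within 10 positions of MYB28, 3 were higher and 1 lower in pxf, beside 13.0% and 7.97% of all tested loci. Their median log2 difference was -0.03, with a range of -0.38 to 2.37. Of 16 tested loci around MYB29, 2 were higher in er erl2, beside 10.3% of all tested loci, with a median of -0.02 and a range of -0.5 to 0.94. Whether these positions bear on the levels was not tested.

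Chain elongation genes rose in nearly every mutant. BCAT4 (AT3G19710), the aminotransferase that starts methionine elongation, had 3.41, 5.56 and 5.35 CPM in wild type, 73.8, 75 and 66.5 in er erl2, 64.8, 54.3 and 61.8 in pxf, and 124, 128 and 102 in pxf er erl2. All 9 mutant libraries lay far above wild type. The fold was 14.9 for er erl2, 12.6 for pxf and 24.6 for pxf er erl2 (log2 4.62, SE 0.15). IPMDH1 (AT5G14200), the isopropylmalate dehydrogenase of the cycle, had 16.3, 12 and 11.7 CPM in wild type, 101, 98.6 and 84.5 in er erl2, 94.0, 72.3 and 90.9 in pxf, and 164, 172 and 142 in pxf er erl2. It was 7.10-fold, 6.43-fold and 11.9-fold higher in the 3 mutants. IPMI-SSU2 (AT2G43100), a small subunit of the isomerase, had 2.46, 2.28 and 3.65 CPM in wild type, 31.4, 28.1 and 26.4 in er erl2, 21.9, 23.4 and 23.8 in pxf, and 42.0, 48.0 and 30.2 in pxf er erl2. Its folds were 10.2, 8.15 and 14.2. IPMI-SSU3 (AT3G58990) went from 0.94 CPM on average in wild type to 8.35 ± 0.20 for er erl2, 8.71 ± 0.90 for pxf and 23.8 ± 2.91 for pxf er erl2 (SD, n = 3). BAT5 (AT4G12030), the bile acid transporter family carrier that moves the 2-oxo acids across the plastid envelope, had mean levels of 3.13, 15.7, 21.8 and 27.1 CPM in the order wild type, er erl2, pxf and pxf er erl2.

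The large subunit and a later aminotransferase had smaller folds. IPMI-LSU1 (AT4G13430), the large subunit shared with leucine synthesis, had 204 to 210 CPM in wild type and 258 to 282 for pxf er erl2, a fold of 1.30. It was also called in er erl2 and pxf at log2 0.18 and 0.19 (SE 0.05 each). These calls were lost in 7 and 6 of the 19 alternatives. In er erl2 they were lost without wild type replicate 1 or 2 or any 1 er erl2 replicate, and in pxf when wild type replicate 1, wild type replicate 2, pxf replicate 1 or pxf replicate 3 was left out, with adjusted p up to 0.0755. BCAT3 (AT3G49680), which finishes elongation and also serves other amino acids, was 1.32-fold, 1.22-fold and 1.30-fold higher in the 3 mutants.

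MAM1 and MAM3, named here after their values were seen because they moved apart, encode the condensing enzymes of elongation. MAM1 (AT5G23010), which makes short chains, had 1.90, 1.73 and 1.19 CPM in wild type, 13.2, 9.44 and 7.55 in er erl2, 34.6, 27.6 and 34.7 in pxf, and 85.0, 98.7 and 49.3 in pxf er erl2. The 4 genotypes did not overlap. Its folds over wild type were 6.29, 20.1 and 48.5. MAM3 (AT5G23020), which also makes long chains, had 1.71, 2.46 and 2.63 CPM in wild type, 2.31, 1.46 and 2.46 in er erl2, 0.926, 0.482 and 0.615 in pxf, and 8.66, 4.68 and 16.4 in pxf er erl2. It was thus lowest in pxf, where MAM1 was 20.1-fold up, and highest in pxf er erl2, where its replicates spread most. The log2 difference was -0.13 (SE 0.47, not passed) in er erl2, -1.74 (SE 0.54) in pxf and 2.11 (SE 0.41) in pxf er erl2. The pxf call was lost without any 1 of the wild-type or pxf libraries, without er erl2 replicate 1 and without pxf er erl2 replicate 1, with adjusted p up to 0.113. The ratio of MAM1 to MAM3 CPM, not scaled for length, was 0.452 to 1.11 for wild type, 3.07 to 6.44 for er erl2, 37.4 to 57.3 for pxf and 3.01 to 21.1 for pxf er erl2. Among 13 tested loci around MAM3, 3 were higher in pxf, beside 13.0% of all tested loci, with log2 differences from -0.3 to 1.37.

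Core synthesis genes spanned a wide range. CYP79F1 (AT1G16410), the cytochrome P450 that turns elongated methionine into aldoximes, had 0.474, 0.456 and 0.0849 CPM in wild type, which are 11 counts in all. It had 44.9, 40.3 and 25.9 CPM in er erl2, 4.70, 4.48 and 4.53 in pxf, and 43.0, 56.3 and 21.3 in pxf er erl2. Levels in er erl2 and pxf er erl2 overlapped, and both exceeded pxf. The log2 difference from wild type was 6.76 (SE 0.58), 3.75 (SE 0.75) and 6.89 (SE 0.57). CYP79F2 (AT1G16400), its neighbour with a preference for long chains, had 2.75, 1.55 and 2.12 CPM in wild type, 5.69, 5.94 and 6.93 in er erl2, 4.70, 4.68 and 4.15 in pxf, and 16.8, 16.2 and 26.7 in pxf er erl2. Its folds were 2.89, 2.11 and 9.26, so that the ratio of CYP79F1 to CYP79F2 CPM was 0.040 to 0.294 for wild type, 3.73 to 7.88 for er erl2, 0.956 to 1.09 for pxf and 0.797 to 3.47 for pxf er erl2. In pxf er erl2 replicate 3, CYP79F1 was the lowest and CYP79F2 the highest of its genotype, as were MAM1 and MAM3.

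CYP83A1 (AT4G13770), the P450 that oxidises the aldoximes, had 20.9, 11.7 and 4.16 CPM in wild type, 268, 253 and 235 in er erl2, 116, 85.0 and 125 in pxf, and 285, 338 and 187 in pxf er erl2. It was 20.7-fold, 8.95-fold and 22.2-fold higher (log2 4.37, 3.16 and 4.47). Without wild type replicate 1 these log2 values were 5.00, 3.79 and 5.11. CYP79F1 and CYP83A1 are likewise named after their values were seen. UGT74C1 (AT2G31790), a glucosyltransferase, had 14.4, 14.4 and 9.09 CPM in wild type, 32.5, 32.0 and 32.7 in er erl2, 47.2, 40.4 and 48.7 in pxf, and 58.4, 74.7 and 54.7 in pxf er erl2, so that each genotype lay above the one before. SOT18 (AT1G74090), a sulfotransferase that completes the core, had 27.8, 25.3 and 21.1 CPM in wild type, 40.1, 40.8 and 41.9 in er erl2, 54.1, 48.9 and 53.0 in pxf, and 76.0, 85.8 and 70.5 in pxf er erl2. Its order of genotypes was the same, with folds of 1.66, 2.11 and 3.14. SOT17 (AT1G18590), the related sulfotransferase, was 1.62-fold higher in pxf and 2.23-fold in pxf er erl2, and its log2 difference of 0.22 (SE 0.12) in er erl2 did not pass. GSTF11 (AT3G03190), the glutathione transferase assigned to this step, is listed at 0 counts in all 12 libraries. The annotated locus AT3G03200 overlaps it, and whether the zeros come from the annotation or the counting was not tested.

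Side-chain oxidation is carried out by the GS-OX flavin monooxygenases. GS-OX1 (AT1G65860) had 0.379, 0.547 and 0.255 CPM in wild type, 13.1, 15.8 and 11.6 in er erl2, 8.55, 5.79 and 8.37 in pxf, and 15.6, 21.5 and 12.4 in pxf er erl2. It was 33.7-fold, 18.9-fold and 41.3-fold higher than in wild type. GS-OX3 (AT1G62560) had 31.6, 37.7 and 26.7 CPM in wild type, 48.4, 47.4 and 55.6 in er erl2, 63.2, 63.0 and 53.5 in pxf, and 78.2, 97.7 and 80.2 in pxf er erl2. GS-OX2 (AT1G62540) had 39.4, 49.8 and 40.8 CPM in wild type, 55.0, 49.7 and 48.5 in er erl2, 63.3, 82.7 and 60.9 in pxf, and 90.4, 97.7 and 117 in pxf er erl2. The latter 2 genes rose far less than GS-OX1: GS-OX3 by folds of 1.58, 1.88 and 2.67, and GS-OX2 by 1.59 in pxf and 2.35 in pxf er erl2. GS-OX4 (AT1G62570) was 2.23-fold higher in pxf. Its call in pxf er erl2 (log2 0.78, SE 0.26) was lost in 11 of 20 alternatives, among them without wild type replicate 1 or 3, er erl2 replicate 2, any 1 pxf replicate, or pxf er erl2 replicate 1 or 2, with adjusted p up to 0.140, and also with a replicate block over all 12 libraries. AOP3 (AT4G03050), a dioxygenase of the side chain, had 6 counts over the wild-type libraries, 5 of them in replicate 1, 13 over pxf, and none in any library with the er and erl2 alleles.

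**Figure D3:**
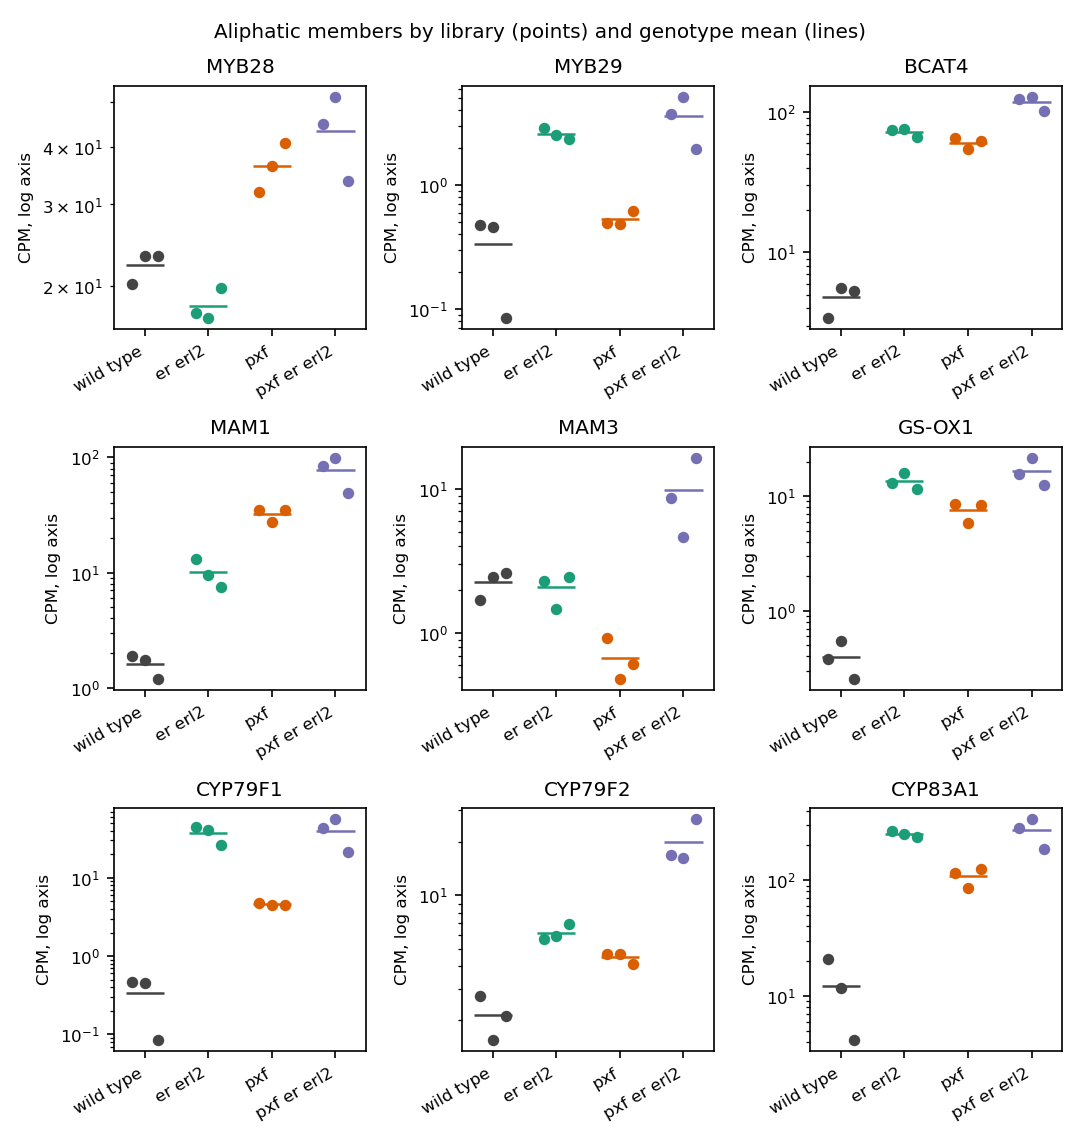
Points are CPM per library on a log axis and lines are genotype means, for MYB28, MYB29, BCAT4, MAM1, MAM3, GS-OX1, CYP79F1, CYP79F2 and CYP83A1. MYB28 is high in the lines with the pxf alleles and MYB29 in those with the er and erl2 alleles, while MAM3 falls to 0.482 to 0.926 CPM in pxf.

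The 2 enzymes used by both branches had modest differences. SUR1 (AT2G20610), the C-S lyase, had 87.2, 88.7 and 85.3 CPM in wild type, 95.2, 114 and 98.6 in er erl2, 146, 127 and 109 in pxf, and 162, 191 and 182 in pxf er erl2. It rose in pxf (log2 0.55, SE 0.10, adjusted p = 0.00272), as it did in pxf er erl2 (1.03, SE 0.10, adjusted p = 1.12e-05). GGP1 (AT4G30530), the gamma-glutamyl peptidase, had 131, 133 and 126 CPM in wild type, 133, 127 and 137 in er erl2, 137, 143 and 127 in pxf, and 161, 177 and 184 in pxf er erl2. Only pxf er erl2 stood clear of the other genotypes, by 0.42 (SE 0.06, adjusted p = 0.000277) from wild type.

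Indolic members passed in different numbers in the 3 mutants. In er erl2, MYB34 was lower, and 0 of the 10 tested members were higher in edgeR, with 1 (IGMT1) at an unadjusted p under 0.05 and 0 by DESeq2. In pxf 3 were higher and 1 lower, and in pxf er erl2 7 were higher. Over all tested loci, 10.3% were higher and 8.44% lower in er erl2, 13.0% and 7.97% in pxf, and 19.9% higher in pxf er erl2. The 1 lower member of 10 in er erl2 and in pxf is near those shares. MYB34 (AT5G60890), an activator of indolic synthesis, had 120, 118 and 113 CPM in wild type, 85.2, 88.7 and 99.0 in er erl2, 159, 132 and 157 in pxf, and 170, 172 and 164 in pxf er erl2. The genotypes did not overlap, and their order was er erl2, wild type, pxf, pxf er erl2. The log2 differences were -0.36 (SE 0.08, adjusted p = 0.00556), 0.35 (SE 0.08, adjusted p = 0.00638) and 0.53 (SE 0.08, adjusted p = 0.000184). MYB51 (AT1G18570), the activator most tied to stress and shoots, had 13.0, 13.4 and 12.9 CPM in wild type, 11.6, 8.62 and 8.69 in er erl2, 10.4, 10.2 and 9.22 in pxf, and 17.2, 9.12 and 20.6 in pxf er erl2. No difference of it from wild type passed. MYB122 (AT1G74080) was too low to test, with 9, 2, 1 and 14 counts over the libraries of wild type, er erl2, pxf and pxf er erl2, and 9 of the 14 were in pxf er erl2 replicate 3.

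Indolic core genes were among the most abundant members. CYP79B2 (AT4G39950), which turns tryptophan into indole-3-acetaldoxime, had 386, 461 and 362 CPM in wild type, 280, 387 and 304 in er erl2, 706, 758 and 526 in pxf, and 714, 832 and 1042 in pxf er erl2. It was 1.65-fold higher in pxf (adjusted p = 0.0171) and 2.14-fold higher in pxf er erl2 (adjusted p = 0.000866). The pxf call failed when wild type replicate 1, wild type replicate 3, pxf replicate 1 or pxf replicate 2 was left out (adjusted p up to 0.0645). CYP79B3 (AT2G22330), the enzyme with the same role, had 264, 290 and 220 CPM in wild type, 167, 248 and 202 in er erl2, 374, 379 and 305 in pxf, and 447, 506 and 488 in pxf er erl2. It was 1.86-fold higher in pxf er erl2 (adjusted p = 0.000638). Its 1.37-fold rise in pxf (adjusted p = 0.0452) was lost in 9 of 19 alternatives, 8 of which each left out 1 library (wild type replicate 1 or 3, er erl2 replicate 3, pxf replicate 1 or 2, any pxf er erl2 replicate), with adjusted p up to 0.140. CYP83B1 (AT4G31500), the P450 of the next step, had 470, 568 and 405 CPM in wild type, 422, 526 and 416 in er erl2, 695, 604 and 562 in pxf, and 787, 903 and 819 in pxf er erl2. It was 1.74-fold higher in pxf er erl2 (adjusted p = 0.000572), and pxf overlapped wild type. UGT74B1 (AT1G24100), the glucosyltransferase, was 1.41-fold higher in pxf er erl2 (adjusted p = 0.00789). SOT16 (AT1G74100), the sulfotransferase, had means of 227, 204, 253 and 288 CPM in wild type, er erl2, pxf and pxf er erl2, and none of its differences from wild type passed. All 5 core genes had negative log2 values in er erl2, from -0.33 to -0.02, none of which passed.

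Of the genes that decorate the indole ring, CYP81F2 and IGMT1 were higher in pxf er erl2 and IGMT2 was lower in pxf. CYP81F2 (AT5G57220), a P450 that hydroxylates the ring and is required for pathogen defence, had 4.27, 4.92 and 5.94 CPM in wild type, 2.89, 3.01 and 5.00 in er erl2, 7.34, 4.20 and 5.53 in pxf, and 13.5, 14.3 and 10.6 in pxf er erl2. Only the last genotype stood apart, at 2.53-fold over wild type (adjusted p = 0.000873). IGMT1 (AT1G21100), a methyltransferase of the hydroxylated ring, had 2.56, 2.19 and 1.61 CPM in wild type, 2.39, 3.09 and 5.00 in er erl2, 1.64, 1.17 and 1.38 in pxf, and 5.93, 3.62 and 6.34 in pxf er erl2. IGMT2 (AT1G21120), a copy with 92.5% identical coding bases and shared transcript runs of up to 71 bases, had 4.64, 2.83 and 3.99 CPM in wild type, 2.72, 1.95 and 5.35 in er erl2, 0.784, 0.964 and 0.845 in pxf, and 4.45, 1.06 and 3.21 in pxf er erl2. IGMT1 rose in pxf er erl2 (2.5-fold, adjusted p = 0.00521) and IGMT2 fell in pxf by 2.13 on the log2 scale (SE 0.52, adjusted p = 0.0130). Without pxf replicate 1 that adjusted p was 0.0515. Counts of such close copies are uncertain where reads can be split between them.

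All 3 glucosinolate transporters were higher in pxf er erl2 and 2 of them in pxf, beside 19.9% and 13.0% of all tested loci. In er erl2, 0 of the 3 passed in edgeR and 0 by DESeq2, with 1 (GTR2) higher at an unadjusted p under 0.05. GTR2 (AT5G62680), an importer that loads the phloem, had 291, 250 and 222 CPM in wild type, 300, 351 and 336 in er erl2, 436, 423 and 409 in pxf, and 470, 517 and 325 in pxf er erl2. It was 1.66-fold higher in pxf (adjusted p = 0.00633) and 1.72-fold in pxf er erl2 (adjusted p = 0.00210). GTR3 (AT1G18880), which also moves indolic glucosinolates in roots, had 81.8, 86.0 and 69.9 CPM in wild type, 78.5, 84.4 and 89.9 in er erl2, 108, 120 and 116 in pxf, and 128, 125 and 115 in pxf er erl2. The lines with the pxf alleles were above the other 2 genotypes with no overlap, at 1.45-fold (adjusted p = 0.000678) and 1.55-fold (adjusted p = 8.26e-05) over wild type. GTR1 (AT3G47960), the close partner of GTR2, had 128, 105 and 94.4 CPM in wild type, 133, 138 and 124 in er erl2, 167, 120 and 116 in pxf, and 190, 185 and 136 in pxf er erl2. It passed only in pxf er erl2 (1.57-fold, adjusted p = 0.0118). All 3 transporters overlap another annotated locus, and the part of reads from those loci was not tested.

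The myrosinase genes gave the largest fall of any member. TGG2 (AT5G25980) had 833, 905 and 738 CPM in wild type, 9.08, 9.92 and 12 in er erl2, 880, 829 and 951 in pxf, and 811, 836 and 477 in pxf er erl2. It was near 10 CPM in er erl2 and at 477 CPM or more in each of the other 9 libraries. The log2 difference of er erl2 from wild type was -6.32 (SE 0.24, adjusted p = 1.99e-08), and pxf er erl2, which carries the same er-105 and erl2-1 alleles, differed from wild type by -0.22 (SE 0.18, adjusted p = 0.374). TGG1 (AT5G26000) had 751, 842 and 696 CPM in wild type, 1433, 1344 and 1406 in er erl2, 880, 805 and 926 in pxf, and 767, 840 and 470 in pxf er erl2. It was 1.83-fold higher in er erl2 (adjusted p = 0.00536), and its differences of the other mutants from wild type did not pass. TGG2 took 51.5% to 52.6% of the counts of the pair in wild type, 0.63% to 0.848% for er erl2, 50.0% to 50.7% for pxf and 49.9% to 51.4% for pxf er erl2. Summed over the pair, CPM was 1434 to 1747 for wild type, 1354 to 1442 for er erl2, 1634 to 1878 for pxf and 946 to 1676 for pxf er erl2, so that the sums overlapped between wild type and er erl2. In pxf er erl2 replicate 3 both genes were low together. Since the low TGG2 level was seen in the er erl2 line and not in the other line with the same alleles, an effect of the alleles and another difference of that line cannot be told apart.

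**Figure D4:**
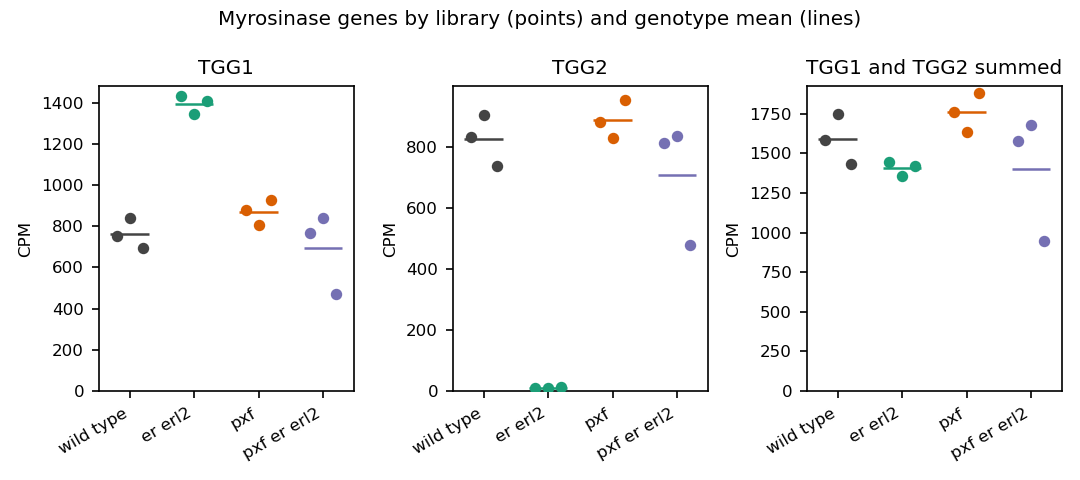
Points are CPM per library and lines are genotype means, for TGG1, TGG2 and their sum, on linear axes from 0. TGG2 lies between 9.08 and 12 CPM in er erl2, where TGG1 is at its highest, and the summed level of er erl2 overlaps that of wild type.

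TGG1 and TGG2 lie at 9079452 to 9082384 (- strand) and 9072708 to 9075777 (+ strand) on chromosome 5, with 1843 and 1840 protein-coding loci between them and ERL2. Of 8 tested loci within 10 positions of TGG2, 1 was higher and 2 lower in er erl2, with log2 differences from -0.85 to 1.10. Over all tested loci, 10.3% were higher and 8.44% lower in er erl2. PEN2 (AT2G44490), an atypical myrosinase of pathogen defence, had 24.1, 16.6 and 18.8 CPM in wild type, 17.8, 15.6 and 20.2 in er erl2, 12.7, 15.0 and 12.7 in pxf, and 20.3, 16.0 and 33.5 in pxf er erl2. None of its 6 tests passed. ESP (AT1G54040), which steers breakdown towards nitriles, had 4, 2, 11 and 0 counts over the libraries of wild type, er erl2, pxf and pxf er erl2, and 9 of the 11 were in pxf replicate 3.

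Set against pxf, pxf er erl2 had 19 members higher and 0 lower, beside 5.07% higher and 5.41% lower over all tested loci. The count of lower members was 0 in edgeR at an unadjusted p under 0.05 as well, and 0 by DESeq2. The highest log2 differences were those of MAM3 (3.85, SE 0.47), CYP79F1 (3.14, SE 0.37), MYB29 (2.75, SE 0.42) and CYP79F2 (2.13, SE 0.21). Of the aliphatic members 15 of 21 rose, of the indolic members CYP81F2 and IGMT1, and both shared enzymes. SOT17, GS-OX2 and GS-OX3 passed with log2 0.46, 0.56 and 0.51, and each was lost without pxf replicate 3, GS-OX2 also without pxf replicate 1, SOT17 without pxf replicate 2, and SOT17 and GS-OX3 without pxf er erl2 replicate 2, with adjusted p up to 0.0896. IPMI-LSU1 passed with log2 0.19 and was lost in 6 of 19 alternatives, among them without any 1 pxf library or pxf er erl2 replicate 2, with adjusted p up to 0.113. Of the 3 transporters 0 passed in edgeR or DESeq2 or at an unadjusted p under 0.05, and of the 3 tested breakdown members 0 passed in edgeR, with PEN2 higher at an unadjusted p under 0.05 and 1 called by DESeq2.

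Set against er erl2, pxf er erl2 had 27 members higher and 1 lower, beside 18.0% and 16.2% over all loci. TGG2 had the highest log2 difference, 6.10 (SE 0.24, adjusted p = 2.52e-08), which rests on its low level in the er erl2 line, followed by MAM1 with 2.95 (SE 0.27) and MAM3 with 2.25 (SE 0.41). TGG1 was the member that fell, by 1.01 (SE 0.17, adjusted p = 0.00105). Indolic members rose in 8 of 10 cases, among them CYP79B2 (1.41, SE 0.18, adjusted p = 0.000179), CYP79B3 (1.22, SE 0.15, adjusted p = 8.04e-05) and MYB34 (0.89, SE 0.08, adjusted p = 3.09e-06). MYB51 was among them at 0.69 (SE 0.24, adjusted p = 0.0394), which failed in 9 of 19 alternatives, 8 of which each left out 1 library (wild type replicate 1 or 2, er erl2 replicate 2 or 3, pxf replicate 1 or 2, pxf er erl2 replicate 1 or 3), with adjusted p up to 0.134. IPMI-SSU2 passed at 0.48 (SE 0.15) and was lost without er erl2 replicate 2 or 3 or pxf er erl2 replicate 1 or 2, with adjusted p up to 0.124. CYP79F1 (0.12, SE 0.31), CYP83A1 (0.10, SE 0.38) and GS-OX1 (0.29, SE 0.20), the 3 aliphatic members with the largest log2 differences of er erl2 from wild type, did not pass. These comparisons use the same pxf er erl2 libraries.

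The interaction term asks whether pxf er erl2 differed from pxf by the same log2 amount as er erl2 from wild type. It was past the threshold and positive for 6 members and negative for 10, beside 4.65% and 4.8% of all tested loci. Aliphatic members held 1 of the positive and 9 of the negative terms. The pathway was selected on fold changes of aliphatic genes between these genotypes, so these counts are a description and not an excess. Negative terms belonged to BCAT4, BAT5, IPMI-SSU2, IPMI-SSU3, IPMDH1, CYP79F1, CYP83A1, UGT74C1, GS-OX1 and TGG1, from -0.90 to -3.95. The term of CYP83A1 was -3.06, and -3.69 without wild type replicate 1. Green tissue markers had negative terms as well, with 5 of 10 past the threshold, all 10 below 0 and a median of -0.98, and their part in the terms of the members was not tested. BCAT4 illustrates them: it was 3.90 higher in er erl2 than in wild type and 0.97 higher in pxf er erl2 than in pxf, a term of -2.93 (SE 0.19). The terms of CYP79F1 and UGT74C1 were each lost in 6 of 18 alternatives, with adjusted p up to 0.0838 and 0.0685. For CYP79F1 this was without any 1 wild-type library, without pxf replicate 1, without pxf replicate 3 and when low counts were not filtered, and for UGT74C1 without any 1 er erl2 library, pxf replicate 1 or 3 or pxf er erl2 replicate 1. Positive terms belonged to TGG2 (5.99, SE 0.29, adjusted p = 4.68e-07, which rests on the er erl2 line as above), MAM3 (3.99, SE 0.68), CYP81F2 (1.65, SE 0.35, adjusted p = 0.0117), CYP79B3 (0.77, SE 0.20, adjusted p = 0.0369), MYB34 (0.54, SE 0.11, adjusted p = 0.00789) and GGP1 (0.34, SE 0.09, adjusted p = 0.0357). Those of CYP79B3 and GGP1 were each lost in 9 of 18 alternatives, and 8 of each left out 1 library, with adjusted p up to 0.0780 and 0.0811. The libraries were wild type replicate 1 or 2, er erl2 replicate 1, pxf replicate 1 or 3 and pxf er erl2 replicate 2 or 3 for both, with er erl2 replicate 3 for CYP79B3 and er erl2 replicate 2 for GGP1.

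On the CPM scale the picture was different. Adding the changes of er erl2 and pxf to the wild-type mean gave 127 CPM for BCAT4, where pxf er erl2 had 118 ± 13.9 (SD, n = 3). For 5 of the 10 members with a negative log2 term (BCAT4, IPMDH1, CYP79F1, UGT74C1 and GS-OX1) this sum lay within the range of the pxf er erl2 libraries. It did so for none of the 6 members with a positive term, and for 6 of the 23 whose term did not pass. The 2 scales are tied by arithmetic. Where er erl2 and pxf moved the same way, adding on the log2 scale gives more than the CPM sum. A positive term there places the pxf er erl2 mean above the CPM sum. The range also includes replicate 3, which stood apart, and no test was made on this scale. For MAM3 the sum was 0.484 CPM against 9.91 ± 5.96 in pxf er erl2, and for CYP81F2 4.28 against 12.8 ± 1.97. For TGG2 the sum was 72.1 against 708 ± 201.

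**Figure D5:**
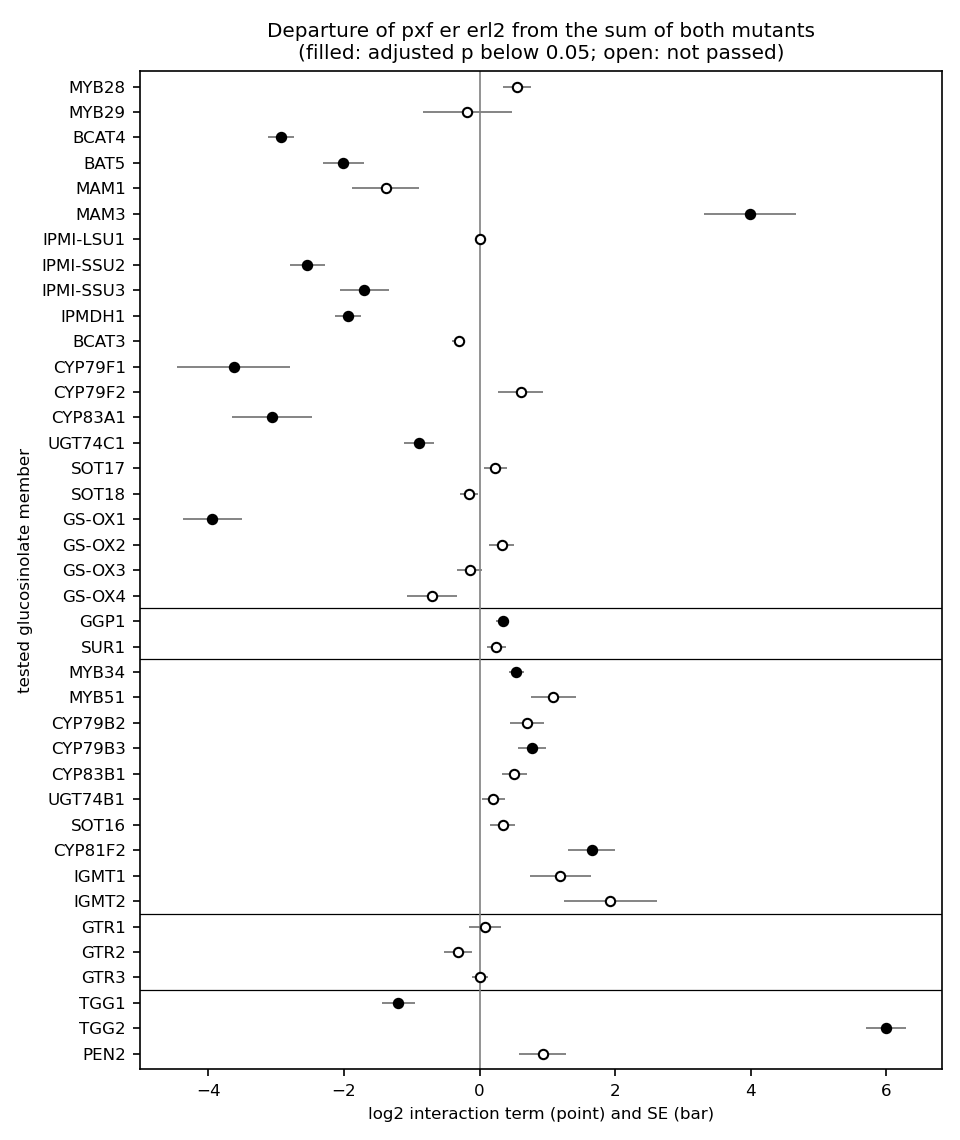
Points show the log2 interaction term of each tested member and bars its SE; filled points passed an adjusted p of 0.05. TGG2 and MAM3 lie farthest to the right at 5.99 and 3.99, and GS-OX1 and CYP79F1 farthest to the left at -3.95 and -3.63.

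Other genes of the same pathways were counted from lists taken from known roles, chosen with earlier results of these data known. The shares to set beside all list counts below are those of all tested loci, 10.3% higher and 8.44% lower in er erl2, 13.0% and 7.97% in pxf, and 19.9% and 16.4% in pxf er erl2, and several of the counts are near them. Of 7 tested further aliphatic genes, 2 were higher and 1 lower in er erl2, 2 and 3 in pxf, and 2 and 3 in pxf er erl2. GSTU20 (AT1G78370), a glutathione transferase assigned to the aliphatic core, rose by 1.28 (SE 0.18, adjusted p = 0.000584), 0.86 (SE 0.17, adjusted p = 0.00629) and 1.18 (SE 0.18, adjusted p = 0.000467) on the log2 scale. BCAT6 (AT1G50110), an aminotransferase of branched-chain amino acids, fell in all 3, by 0.73, 0.51 and 1.54. Of 10 tested further indolic genes, 2 were lower in er erl2, 3 were higher and 3 lower in pxf, and 4 were higher in pxf er erl2. CYP81F4 (AT4G37410), which hydroxylates the indole nitrogen position, rose by 0.85 in pxf and 1.36 in pxf er erl2, and IGMT5 (AT1G76790), the methyltransferase that follows it, by 0.76 and 1.08. CYP81F1 (AT4G37430) is listed at 0 in all libraries, for which the cause was not tested.

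Of 14 tested further breakdown genes, 3 were higher and 2 lower in er erl2, 4 and 1 in pxf, and 6 and 2 in pxf er erl2. PYK10 (AT3G09260), the abundant beta-glucosidase of root ER bodies, rose by 0.44 (adjusted p = 0.0624 without er erl2 replicate 3), 0.56 and 1.43. MBP1 (AT1G52040), a myrosinase-binding protein, fell by 1.00, 1.02 and 1.5. Of 7 tested upstream regulators, 1 was higher in er erl2, 1 in pxf, and 2 were lower in pxf er erl2. FAMA (AT3G24140), which specifies guard cells and myrosin cells, rose in er erl2 by 1.11 (SE 0.32, adjusted p = 0.0274), but not when wild type replicate 1, wild type replicate 3, er erl2 replicate 1 or er erl2 replicate 3 was left out (adjusted p up to 0.102). SDI1 (AT5G48850), a sulfur-deficiency factor that represses the aliphatic MYBs, fell in pxf er erl2 by 1.64 (SE 0.37, adjusted p = 0.00484). MYC2 (AT1G32640) is listed at 0 in all libraries, and whether this comes from the annotation or the counting was not tested. MYC3 and MYC4 did not pass against wild type. Of 9 genes that supply activated sulfate and glutathione, 2 were lower in er erl2, 1 was lower in pxf, and 4 were higher and 1 lower in pxf er erl2, with APK2 (AT4G39940, the kinase that makes the sulfate donor) at 1.03 and APS1 (AT3G22890) at 0.78. Of 4 genes of the tryptophan-derived phytoalexin camalexin, CYP71A13 (AT2G30770) was lower in pxf (-2.68, SE 0.83, adjusted p = 0.0497). That call failed in 12 of 19 alternatives, 9 of which each left out 1 library (wild type replicate 1 or 2, any er erl2 replicate, pxf replicate 1 or 2, pxf er erl2 replicate 1 or 3), with adjusted p up to 0.130. CYP71A12 (AT2G30750) was higher in pxf er erl2 (1.59, SE 0.33), with an adjusted p of 0.11 when those groups were fitted alone with a replicate block.

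Within genotypes the median correlation was low inside each branch, though single pairs differed widely. Among aliphatic pairs, MYB29 with CYP79F1 had 0.952 and BCAT4 with CYP79F2 had -0.821. After removal of genotype means, the median Pearson correlation of log2 CPM over the 12 libraries was 0.193 among the 210 aliphatic pairs, 0.127 among the 45 indolic pairs and 0.0003 between the branches. It was 0.428 between aliphatic members and transporters (63 pairs), with quartiles of -0.006 and 0.605, which were -0.188 and 0.535 among the aliphatic pairs. In pxf er erl2 replicate 3, 18 of 21 aliphatic members and all 3 transporters were below their genotype means. In wild type replicate 3, 13 of 21 aliphatic members and all 3 transporters were below theirs. The part of these libraries in the correlations was not tested. Against all tested loci the aliphatic members had a median of -0.002, with quartiles of -0.302 and 0.307. These correlations describe 12 libraries, and the 2 values of each pair of members come from the same library.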

How the data were processed

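The deposited values are counts of reads per gene, 1 file per library. The authors aligned reads with HISAT2 2.0.5 and counted them with featureCounts 1.5.0-p3 on TAIR10, per the submitters' processing notes. The annotation release, the strand setting and the handling of reads with several matches are not given in the sources used here. Libraries were made from poly-A RNA, per the labels' protocols. Without a stated strand setting, reads of overlapping genes cannot be told apart, and 8 members overlap another annotated locus. These are BCAT4, IPMDH1, GSTF11, UGT74C1, SOT18, GTR1, GTR2 and GTR3.

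The 12 libraries were fitted together in edgeR 4.0.16 (R 4.3.3) with 1 term per genotype: filterByExpr kept 19236 of 32833 loci, which hold 99.9% of counts, TMM factors were 0.985 to 1.01, and the quasi-likelihood F-test with robust dispersion was adjusted by Benjamini-Hochberg over all tested loci. A call is an adjusted p under 0.05. The SE is the absolute log2 fold change over the square root of F. The common biological coefficient of variation was 11.6%. Limits from a count of 0 cover counting error only. The p-values set a difference against the spread between replicates within genotypes, with 3 replicates each. That spread was estimated jointly over all genotypes in the fit and moderated across loci.

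Members and gene lists were chosen with earlier results of these data known. Values per library are given for MYB28, MYB29, MYB76, MYB34 and up to 3 members of each role with at least 1 CPM on average and the smallest adjusted p over 6 contrasts. MAM1, MAM3, CYP79F1 and CYP83A1 were added after their values were seen. The fit was run on simulated data for er erl2 against wild type alone, with changes placed only in loci above a count limit. Other contrasts and members with low counts were not covered by it. Alternatives were RLE or total-count scaling, DESeq2 1.42.0, other filters, a fit of the compared groups alone, a replicate block, and leaving out each library. Same-numbered libraries were checked for pairing: the correlation of their deviations ranged from -0.367 to 0.270 over 18 pairs of libraries, and only between wild type and pxf er erl2 did all 3 exceed 0.1 (0.107 to 0.270). There the compared groups with a replicate block gave 33 members higher and 0 lower, as without it; this fit was chosen after seeing the data. Sequences and positions are from RefSeq on TAIR10.1, which matched all 44 members by locus code. The sequence before 1 further pair is not reported here.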

Additional observations from a re-analysis of the deposited data

Results flagged for a closer look

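For 16 members the difference of pxf er erl2 from pxf was not that of er erl2 from wild type by the interaction test in edgeR, and each value below is the first log2 difference minus the second. It was negative for BCAT4 (-2.93), BAT5 (-2.01), IPMI-SSU2 (-2.54), IPMI-SSU3 (-1.70), IPMDH1 (-1.94), CYP79F1 (-3.63), CYP83A1 (-3.06), UGT74C1 (-0.90), GS-OX1 (-3.95) and TGG1 (-1.20). It was positive for MAM3 (3.99), GGP1 (0.34), MYB34 (0.54), CYP79B3 (0.77), CYP81F2 (1.65) and TGG2 (5.99). Over all tested loci, 4.65% had a positive and 4.8% a negative term past the threshold. The terms of CYP79F1, UGT74C1, CYP79B3 and GGP1 were lost in some alternatives, as given above. For 5 of the 10 negative members, the sum of both changes in CPM lay within the pxf er erl2 libraries. In er erl2, TGG2 was down to 9.08 to 12 CPM, while pxf er erl2, with the same ER and ERL2 alleles, had 477 to 836 CPM. For TGG2 an effect of the alleles and another difference of the er erl2 line cannot be told apart.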

How the results depend on the processing

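Over 4445 log2 values of the 39 tested members under the alternatives, 4278 kept their side of the threshold, 104 were no longer called, 63 became called and 0 called values turned. Counts of higher members stayed at 16 to 18 for er erl2 against wild type, 22 to 26 for pxf against wild type and 32 to 34 for pxf er erl2 against wild type, and at 15 to 25 for pxf er erl2 against pxf and 25 to 29 for it against er erl2. The interaction had 4 to 9 positive and 8 to 11 negative members. The count that moved by over 1.5 times was that of lower members in pxf against wild type, 2 in the reported fit, which was 4 when the compared groups were fitted alone and 0 to 3 when 1 library was left out. Without pxf er erl2 replicate 3, which stood apart, 33 members were higher than wild type, 22 than pxf and 28 than er erl2. With a replicate block over all 12 libraries the higher members numbered 17, 26 and 32 against wild type, 22 against pxf and 29 against er erl2. The labels do not say that replicate numbers mark a shared batch. Deviations of same-numbered libraries correlated above 0.1 in 5 of 18 pairs, and in all 3 only between wild type and pxf er erl2. At this depth, MYB76, MYB122, AOP3 and ESP could not be tested, and GSTF11 had 0 counts throughout.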
